A study of Mus musculus with 18 samples.

Results

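The 10 genes Prrx1, Prrx2, Twist1, Twist2, Msx1, Msx2, Osr1, Osr2, Meis1 and Meis2 encode transcription factors of mesenchyme and of the developing limb. They were taken by their symbols from the deposited tables, where all 10 are present among 20325 genes. Their transcripts were measured by RNA sequencing in C3H10T1/2 cells, a mesenchymal multipotent line from C3H mouse embryos, and in tumors grown from a derivative of that line.

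H3.3K36M cells (n = 2) stably expressed histone H3.3 in which methionine replaces the lysine of the K36 position, and H3.1K36M cells (n = 2) stably expressed histone H3.1 with that same change. H3.3 WT cells (n = 2) stably expressed wild-type H3.3. The introduced histones carry a FLAG-HA tag, there is no line with wild-type H3.1, and each histone is represented by a single line. HMT siRNA cells (n = 3) received siRNAs against the H3K36 methyltransferase genes Nsd1, Nsd2 and Setd2, and control siRNA cells (n = 3) received a scramble siRNA. H3.3K36M tumors (n = 6) were removed 5 to 6 weeks after 2000000 H3.3K36M cells in Matrigel were placed under the skin of both flanks of athymic female SCID mice aged 6 to 8 weeks. Cultured cells were at passage 10 to 15. Whether libraries of a group are separate cultures, or tumors separate mice, is not in the labels, so p-values reflect variation among these libraries alone and part of it may be technical.

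K36M histones act in a dominant manner on the enzymes that methylate lysine 36 of histone H3, a mark of transcribed and of intergenic active chromatin. In the limb bud, mesenchymal progenitors are patterned by transcription factors before they become cartilage, bone, tendon or connective tissue. Twist and Msx proteins are best known for holding such progenitors back from differentiation, Prrx and Osr proteins for marking limb and connective tissue mesenchyme, and Meis proteins for marking the proximal limb, where retinoic acid is present.

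Values are normalised read counts: estimated counts that the authors scaled by a median method within each table. The tables were scaled separately, so the same H3.3K36M and H3.3 WT libraries have higher values in the table that also holds the tumors than in the table that also holds the siRNA cells, and each comparison stays within 1 table. Levels are not corrected for gene length and are not compared between genes. Depth was 13993307 to 56041798 estimated reads per library, at which 1 estimated read is worth 0.438 to 1.73 units of value. Fold changes are log2 differences of value + 1 from limma with their standard errors (SE), and adjusted p-values (Benjamini-Hochberg over all genes tested) were called past 0.05.

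The cells matched their labels on the marker genes examined. All 10 mesenchymal markers, among them Vim, Pdgfra and Col1a1, were at 10 or more in every library of every group. That floor shows presence and does not compare levels. These markers summed to 716090 to 763857 in H3.3K36M cells, against 1197550 to 1204890 in H3.3 WT cells. Fn1 averaged 148474 and 445082 in these lines. Thy1 went the other way, at 885 and 77.9, as did Cdh11 and Col1a1. The part of these levels in the results was not tested. Setd2 was at 1063 to 1224 in HMT siRNA cells, against 3114 to 3401 in control siRNA cells (34.9% of the control mean). Whsc1, the symbol used in the tables for Nsd2, was at 66.7% and Nsd1 at 69.4% of the control mean.

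Promoter sequences are shown for the Msx and Twist pairs, because the Msx paralogs moved in opposite directions and the Twist paralogs in the same direction in H3.3K36M cells. They run from 250 bases before to 50 bases after the gene start and come from RefSeq (build GRCm38.p6). Such windows were at hand for 8 of the 10 genes, and the deposited values were made on mm9. Capitals mark matches, on either strand, to TAATTA, a core recognised by homeodomains, or TGACAG, a core recognised by Meis factors.
Msx1: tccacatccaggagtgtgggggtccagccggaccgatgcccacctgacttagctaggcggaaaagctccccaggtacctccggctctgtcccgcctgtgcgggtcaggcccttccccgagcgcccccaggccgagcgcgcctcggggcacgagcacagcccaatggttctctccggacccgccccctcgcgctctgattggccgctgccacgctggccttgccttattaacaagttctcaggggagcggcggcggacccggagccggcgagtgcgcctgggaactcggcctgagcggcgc
Msx2: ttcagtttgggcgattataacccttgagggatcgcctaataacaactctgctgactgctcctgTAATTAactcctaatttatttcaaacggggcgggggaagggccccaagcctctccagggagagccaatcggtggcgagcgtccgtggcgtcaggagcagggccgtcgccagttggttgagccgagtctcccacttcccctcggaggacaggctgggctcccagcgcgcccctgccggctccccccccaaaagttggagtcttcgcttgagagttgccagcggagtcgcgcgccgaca
Twist1: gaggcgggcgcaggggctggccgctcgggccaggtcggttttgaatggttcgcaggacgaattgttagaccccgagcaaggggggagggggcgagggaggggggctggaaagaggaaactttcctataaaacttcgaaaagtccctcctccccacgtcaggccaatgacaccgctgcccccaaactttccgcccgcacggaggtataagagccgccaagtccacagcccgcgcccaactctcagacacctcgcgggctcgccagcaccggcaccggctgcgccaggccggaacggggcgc
Twist2: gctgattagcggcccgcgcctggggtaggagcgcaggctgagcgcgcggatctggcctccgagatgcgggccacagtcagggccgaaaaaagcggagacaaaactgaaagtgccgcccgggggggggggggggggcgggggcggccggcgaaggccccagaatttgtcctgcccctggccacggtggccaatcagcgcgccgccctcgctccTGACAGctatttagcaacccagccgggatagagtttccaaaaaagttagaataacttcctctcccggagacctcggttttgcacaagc
The Msx1 window (chr5:37824536-37824835, minus strand) and the Twist1 window (chr12:33957421-33957720, plus strand) held neither motif. The Msx2 window (chr13:53472731-53473030, minus strand) held 1 TAATTA, and the Twist2 window (chr1:91801211-91801510, plus strand) held 1 TGACAG. None of the 4 held CATNTG, the E-box form bound by Twist factors, on either strand. Of 32851 RefSeq promoter windows of this kind, 5.29% hold TAATTA, 19.2% hold TGACAG and 39.4% hold CATNTG, so these matches are descriptions of the letters only. The windows of Msx1, Msx2, Twist1 and Twist2 held 29, 22, 27 and 25 CG dinucleotides, against a median of 7 over all windows (quartiles 3 and 20).

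H3.3K36M cells differed from H3.3 WT cells in most of the 10 genes. Prrx2, Twist1, Twist2, Msx2, Osr2, Meis1 and Meis2 rose, Msx1 and Osr1 fell, and Prrx1 did not pass the test. The 9 genes called stand against a background of 70.8% of all 13186 genes tested, of which 37.5% were called higher and 33.3% lower. Changes of at least 2-fold were fewer in the background: 4 of the 10 rose and 2 fell by that much, against 12.2% and 8.17% of all genes. The median log2 change was 0.92 over the 10 genes and 0.02 over all genes tested. The 10 genes were chosen with earlier results of these data known, so these figures describe them and do not test an excess. In HMT siRNA cells 6 of the 10 rose and 1 fell against control siRNA cells, where 63.5% of all genes were called (31.9% higher and 31.7% lower). Twist2 alone among them rose by 2-fold or more, as 5.3% of all genes did, and none fell by that much, as 4.85% of all genes did.

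Markers of other cell types also differed between the cultured groups at low levels, and their part in these results was not tested. The 9 macrophage markers summed to 391 to 399 in H3.3K36M cells, against 202 to 218 in H3.3 WT cells. They summed to 278 to 322 in HMT siRNA cells, against 153 to 198 in control siRNA cells. Most of the difference with knockdown was Cd14, which averaged 241 in HMT siRNA cells, against 117 in control siRNA cells. Cd68 and Fcgr1 averaged 18.7 and 8.52 in HMT siRNA cells, against 23.2 and 16.3 in control siRNA cells. Fcgr1 was also lower in H3.3K36M cells (11.2) than in H3.3 WT cells (29.9). The 8 endothelial markers summed to 419 to 465 in H3.3K36M cells, against 942 to 979.9 in H3.3 WT cells. Within that list Tek averaged 118 in H3.3K36M cells, against 690 in H3.3 WT cells. Cdh5 and Vwf averaged 51.4 and 264 in H3.3K36M cells, against 15.8 and 246 in H3.3 WT cells, and the other 5 were under 10. The endothelial sum was 83.6 to 111 in HMT siRNA cells, against 221 to 256 in control siRNA cells. Tek averaged 50.5 and Vwf 34.9 in HMT siRNA cells, against 202 and 27.2 in control siRNA cells. The 6 red cell markers summed to 634 to 672 in H3.3K36M cells, nearly all of it Hba-a1, against 8.53 to 10.9 in H3.3 WT cells. Hbb-b1 and Hba-a2 were at 0 in all 4 groups. The 6 skeletal muscle markers summed to 430 to 432 in H3.3K36M cells, against 158 to 173 in H3.3 WT cells. Of these, Acta1 and Actn3 averaged 266 and 139 in H3.3K36M cells, against 117 and 26.1 in H3.3 WT cells. Tnnt3 was level (23.4 and 22.7), and Ckm, Myh4 and Myl1 were under 10 in both lines. The 6 epithelial markers summed to 577 to 620 in H3.3K36M cells, against 267 to 296 in H3.3 WT cells. Within that list Cdh1 averaged 579 in H3.3K36M cells, against 141 in H3.3 WT cells, Krt14 averaged 18.5 in H3.3K36M cells, against 138 in H3.3 WT cells, and Epcam and Cldn4 were at 0 in both. The 5 adipocyte markers summed to 284 to 321 in H3.3K36M cells, against 695 to 718 in H3.3 WT cells. Nearly all of it was Pparg, at means of 301 and 705, while Plin1, Cidec and Lep were at 0 in both.

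**Figure D1:**
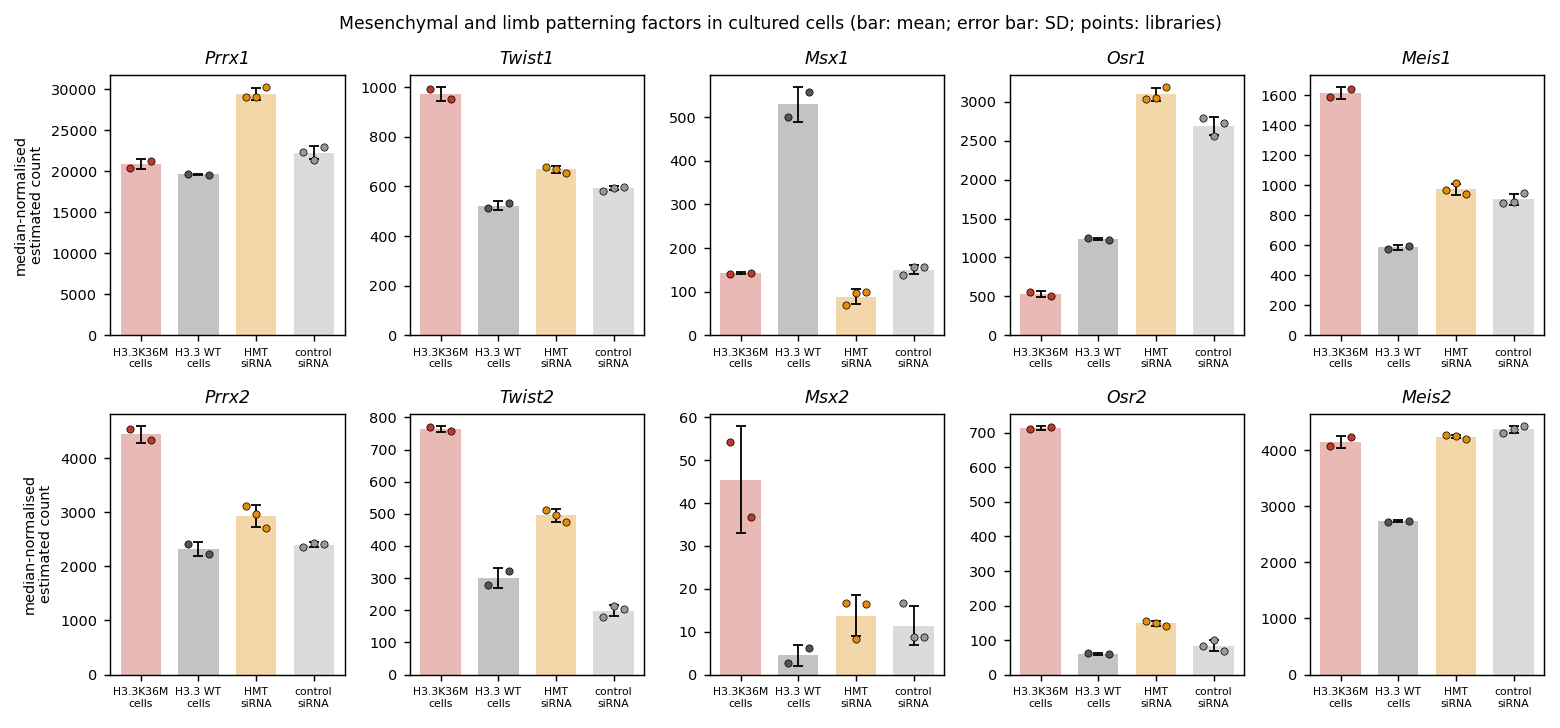
Normalised read counts of the 10 genes in cultured cells of the table with the siRNA libraries; each point is a library, bars are group means, error bars are SD and each vertical axis starts at 0. H3.3K36M cells stand above H3.3 WT cells for Osr2, Msx2, Meis1 and Twist2 and below them for Msx1 and Osr1, while HMT siRNA cells stand clearly above control siRNA cells for Twist2.

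Prrx1 and Prrx2 are paired-related homeodomain factors that act together in mouse limb and craniofacial skeleton. Prrx1 was at 20453 and 21288 in H3.3K36M cells, against 19643 and 19571 in H3.3 WT cells. The 2 groups did not overlap, yet the difference was small (log2 0.09 ± 0.04 SE, 95% interval 0.005 to 0.17) and did not pass the test in limma (adjusted p = 0.055). In HMT siRNA cells Prrx1 was at 29040, 29026 and 30283, against 22375, 21394 and 23016 in control siRNA cells. Every HMT siRNA library was above every control library, and Prrx1 rose 1.32-fold (log2 0.40 ± 0.03 SE, adjusted p = 4.00e-09 in limma). Prrx2 was at 4550 and 4337 in H3.3K36M cells, against 2408 and 2231 in H3.3 WT cells. It rose 1.92-fold there with no overlap (log2 0.94 ± 0.06 SE, adjusted p = 3.24e-11 in limma). With knockdown Prrx2 was at 3117, 2975 and 2720 in HMT siRNA cells, against 2361, 2442 and 2409 in control siRNA cells. That rise was smaller, at log2 0.29 ± 0.05 SE (adjusted p = 2.56e-05 in limma).

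Twist1 and Twist2 are basic helix-loop-helix factors of early mesenchyme; Twist1 is also known for epithelial-mesenchymal transition and Twist2 for dermis. Twist1 was at 992 and 952 in H3.3K36M cells, against 511 and 534 in H3.3 WT cells. All H3.3K36M libraries were higher, and the gene rose 1.86-fold (log2 0.89 ± 0.06 SE, adjusted p = 1.90e-10 in limma). Knockdown gave Twist1 levels of 679, 671 and 654 in HMT siRNA cells, against 583, 595 and 598 in control siRNA cells, a rise of log2 0.17 ± 0.05 SE (adjusted p = 0.00486 in limma). Twist2 was at 770 and 757 in H3.3K36M cells, against 279 and 322 in H3.3 WT cells. It rose 2.54-fold (log2 1.35 ± 0.09 SE, adjusted p = 2.55e-10 in limma). In HMT siRNA cells Twist2 was at 512, 498 and 475, against 179, 213 and 202 in control siRNA cells. The groups were far apart, and Twist2 rose 2.50-fold (log2 1.32 ± 0.08 SE, adjusted p = 2.52e-11 in limma); 3.29% of all genes tested rose as far or further with knockdown.

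Msx1 and Msx2 are homeodomain repressors that act downstream of BMP signals in limb and skull. Msx1 was at 141 and 144 in H3.3K36M cells, against 501 and 558 in H3.3 WT cells. It fell to 26.9% of the H3.3 WT mean (log2 -1.89 ± 0.15 SE, adjusted p = 2.10e-09 in limma). After knockdown Msx1 was at 68.6, 97.0 and 100.1 in HMT siRNA cells, against 138, 156 and 157 in control siRNA cells, and it fell there too (log2 -0.77 ± 0.12 SE, adjusted p = 2.25e-05 in limma). Msx2, in contrast, was at 54.3 and 36.7 in H3.3K36M cells, against 2.76 and 6.25 in H3.3 WT cells. Those H3.3 WT values stand for 2.78 and 5.86 estimated reads, so the size of the rise is imprecise (log2 3.13 ± 0.44 SE, adjusted p = 4.82e-06 in limma). With 10 in place of 1 added to each value the Msx2 change was 1.93. Msx2 was at 16.6, 8.21 and 16.5 in HMT siRNA cells, against 16.7, 8.80 and 8.65 in control siRNA cells. These groups overlapped, and no difference was detectable at this depth (log2 0.25, 95% interval -0.51 to 1.02).

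Osr1 and Osr2 are zinc finger factors related to the fly gene odd-skipped; Osr1 marks intermediate mesoderm and limb connective tissue, and Osr2 acts in palate and synovial joints. Osr1 was at 555 and 504 in H3.3K36M cells, against 1247 and 1228 in H3.3 WT cells. It fell to 42.8% of the H3.3 WT mean (log2 -1.22 ± 0.05 SE, adjusted p = 3.88e-13 in limma). In HMT siRNA cells Osr1 was at 3043, 3056 and 3192, against 2786, 2560 and 2724 in control siRNA cells. It rose with knockdown, by log2 0.20 ± 0.04 SE (adjusted p = 0.000628 in limma). Osr2 was at 710.1 and 718 in H3.3K36M cells, against 61.6 and 58.7 in H3.3 WT cells. It rose 11.9-fold (log2 3.55 ± 0.15 SE, adjusted p = 1.29e-13 in limma), and 3.22% of all genes tested rose as far or further. After knockdown Osr2 was at 156, 149 and 140.3 in HMT siRNA cells, against 83.5, 100.4 and 67.4 in control siRNA cells, a 1.77-fold rise (log2 0.83 ± 0.12 SE, adjusted p = 7.89e-06 in limma).

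Meis1 and Meis2 are TALE homeodomain factors that bind DNA together with other homeodomain proteins. Meis1 was at 1585 and 1643 in H3.3K36M cells, against 575 and 596 in H3.3 WT cells. It rose 2.76-fold with no overlap (log2 1.46 ± 0.06 SE, adjusted p = 7.35e-14 in limma). In HMT siRNA cells Meis1 was at 967, 1013 and 939.5, against 879.7, 887 and 949.5 in control siRNA cells. These groups overlapped and the difference did not pass the test (log2 0.10, 95% interval 0.003 to 0.20, adjusted p = 0.0665 in limma). Meis2 was at 4075 and 4229 in H3.3K36M cells, against 2719 and 2743 in H3.3 WT cells. It rose 1.52-fold (log2 0.60 ± 0.04 SE, adjusted p = 8.41e-11 in limma). With knockdown Meis2 was at 4271, 4249 and 4210 in HMT siRNA cells, against 4314, 4375 and 4427 in control siRNA cells. The HMT siRNA libraries were all lower, but by little (log2 -0.04, 95% interval -0.11 to 0.02, adjusted p = 0.244 in limma).

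**Figure D2:**
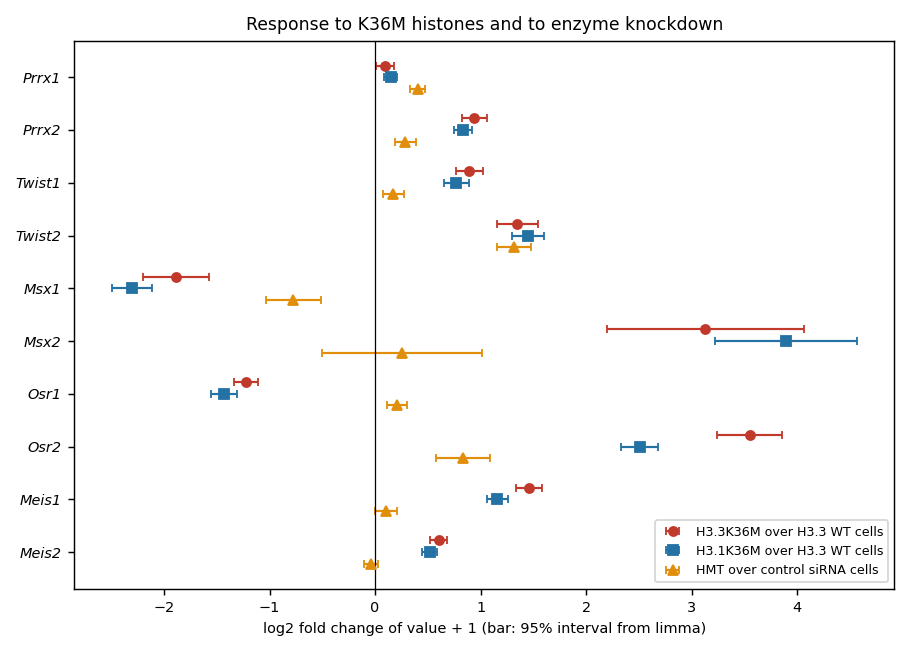
Log2 fold changes of value + 1 with 95% intervals from limma for H3.3K36M over H3.3 WT cells, H3.1K36M over H3.3 WT cells and HMT siRNA over control siRNA cells. Both K36M lines lie on the same side of 0 for each gene, although Prrx1 turned sign in both under quantile normalisation, and the knockdown marker lies near both of them for Twist2 at about 1.32.

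The mutant histone and the knockdown were then compared directly, as the H3.3K36M change minus the HMT siRNA change of each gene. This difference passed the test for 9 of the 10 genes, where 54.9% of all genes did; it was 2-fold or more for 3 higher and 2 lower, against 9.89% and 5.76% of all genes. The H3.3K36M change was the higher one for Prrx2, Twist1, Msx2, Osr2, Meis1 and Meis2, by log2 0.65 to 2.87. It was the lower one for Prrx1, Msx1 and Osr1, by log2 -0.31, -1.11 and -1.43. For Twist2 the changes differed by log2 0.03 (95% interval -0.22 to 0.28, adjusted p = 0.863 in limma), so a difference of more than 0.28 lies outside the interval. The sign of that small Twist2 value turned when H3.3 WT library 1, HMT siRNA library 3 or control siRNA library 2 was left out.

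The responses start from different references. H3.3 WT cells and control siRNA cells differed in 9 of the 10 genes, 2 higher and 7 lower in H3.3 WT cells, where 58.8% of all genes differed (30.4% higher and 28.4% lower). By 2-fold or more, 1 was higher and 2 were lower, against 7.33% and 5.48% of all genes. Msx1 was at 530 ± 40.1 in H3.3 WT cells (SD, n = 2), against 150.3 ± 10.7 in control siRNA cells (SD, n = 3), so its level in H3.3K36M cells, 142 ± 2.26, overlapped that of control siRNA cells. Osr1 was at 1237 ± 13.5 in H3.3 WT cells, against 2690.1 ± 117 in control siRNA cells. Meis2 was at 2731 ± 16.7 in H3.3 WT cells, against 4372 ± 56.4 in control siRNA cells, and the H3.3K36M values lay between those of both. Lower levels in H3.3 WT cells were also found for Prrx1, Msx2, Osr2, Meis1 and Twist1, a higher one for Twist2, and Prrx2 was not called (log2 -0.05, adjusted p = 0.397 in limma). Without H3.3 WT library 1 the calls of Msx2 (-0.71) and Twist1 (-0.15) were lost, which left 7 members called; without H3.3 WT library 2 that of Osr2 was lost (-0.42), and without control siRNA library 1 that of Msx2 (-0.90). The histone lines and the siRNA cells are separate preparations, and preparation and histone cannot be told apart in this contrast.

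Ordered by mean level over these 4 groups, H3.3K36M cells were highest for Prrx2, Twist1, Twist2, Msx2, Osr2 and Meis1. HMT siRNA cells were highest for Prrx1 and Osr1, control siRNA cells for Meis2 and H3.3 WT cells for Msx1. Neighbours in this order that overlapped were control siRNA and H3.3 WT cells for Prrx2, H3.3K36M and control siRNA cells for Msx1, HMT and control siRNA cells for Msx2 and Meis1, and HMT siRNA and H3.3K36M cells for Meis2.

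H3.1K36M cells were compared with the H3.3 lines as a second carrier of the K36M change. Against H3.3 WT cells, 8 of the 10 genes rose and 2 fell, where 79.5% of all 13404 genes tested were called (41.1% higher and 38.4% lower). Osr2 was at 447 and 485 in H3.1K36M cells, against 82.8 and 79.4 in H3.3 WT cells (log2 2.51 ± 0.08 SE). Msx2 was at 101.2 and 95.8 in H3.1K36M cells, against 3.71 and 8.46 in H3.3 WT cells (log2 3.90 ± 0.31 SE). Meis1 and Twist2 also rose by more than 2-fold, by log2 1.16 and 1.45. Msx1 fell to 144.4 and 142.8 in H3.1K36M cells, against 674 and 755 in H3.3 WT cells (log2 -2.31 ± 0.09 SE), and Osr1 fell by 1.44 on the log2 scale. The rise of Prrx1 was log2 0.15 (adjusted p = 0.000434 in limma), and with quantile normalisation it was -0.04 and no longer called. This contrast shares its H3.3 WT libraries with that of H3.3K36M cells, and it joins a change of histone variant with the K36M change.

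Against H3.3K36M cells, 5 of the 10 genes were called in H3.1K36M cells, where 68.2% of all genes were (35.4% higher and 32.8% lower). Osr2 alone passed 2-fold, as 10.3% of all genes did on the lower side. It was at 447 and 485 in H3.1K36M cells, against 936 and 948 in H3.3K36M cells, and fell to 49.5% (log2 -1.01 ± 0.08 SE, adjusted p = 4.35e-08 in limma). Msx1, Meis1 and Osr1 fell by 0.38, 0.27 and 0.18 on the log2 scale, and Prrx1 rose by 0.09; Prrx1 turned to about 0 (-0.004) with quantile normalisation. Msx1 lost its call with quantile normalisation (-0.17, adjusted p = 0.110 in limma), and Osr1 without H3.3K36M library 1 (-0.11) or H3.1K36M library 2 (-0.15). Prrx1 also lost its call without library 1 of either line (0.06 and 0.07). Msx2 was at 101.2 and 95.8 in H3.1K36M cells, against 71.6 and 48.5 in H3.3K36M cells. That difference did not pass the test (log2 0.73, 95% interval 0.06 to 1.40, adjusted p = 0.0509 in limma). It did pass with 10 added to each value (log2 0.65, adjusted p = 0.00429) and with quantile normalisation (log2 1.17, adjusted p = 0.00189). Intervals for the others were narrow: -0.16 to 0.01 for Prrx2, -0.13 to 0.02 for Meis2, -0.21 to 0.02 for Twist1 and -0.01 to 0.28 for Twist2. Prrx2, Meis2 and Twist1 were called lower with quantile normalisation and with upper-quartile scaling, by 0.11 to 0.15 on the log2 scale.

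Markers of other cell types differed here too, and their part was not tested. In H3.1K36M cells the 9 macrophage markers summed to 552 to 571, against 515 to 527 in H3.3K36M cells and 271 to 296 in H3.3 WT cells. Most of these sums was Cd14 and Lyz2, while Fcgr1 averaged 12.7 in H3.1K36M cells, against 40.4 in H3.3 WT cells. The endothelial sum was 159 to 166 in H3.1K36M cells, against 553 to 613 in H3.3K36M cells and 1275 to 1319 in H3.3 WT cells, and most of the last was Tek. The red cell sum was 240 to 252 in H3.1K36M cells, against 836 to 885 in H3.3K36M cells and 11.6 to 14.7 in H3.3 WT cells. The epithelial sum was 233 to 261 in H3.1K36M cells, against 760.4 to 819 in H3.3K36M cells and 361 to 399 in H3.3 WT cells. Cdh1 averaged 202, 764 and 190 in H3.1K36M, H3.3K36M and H3.3 WT cells, and Krt14 averaged 41.7, 24.4 and 186. In the same order, skeletal muscle sums were 548 to 555, 567 to 569 and 212 to 234. Acta1 averaged 138, 351 and 157 there, and Actn3 391, 183 and 35.2. Adipocyte sums, nearly all Pparg, were 972 to 973, 374 to 423 and 941 to 966.

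Tumors are mixed tissue, and the deposited values do not separate injected cells from host cells, which are both of mouse. Fewer cells of a type and less RNA per cell cannot be told apart in them. Summed values of 9 macrophage markers were 118129 to 164132 in tumors, against 515 to 527 in H3.3K36M cells, and 8 endothelial markers summed to 10713 to 30344 in tumors, against 553 to 613 in H3.3K36M cells. All markers of both lists were at 10 or more in every tumor, and the endothelial sum was highest in tumor 6. Cdh5 was the largest endothelial marker, at a mean of 10113 in tumors, against 67.8 in H3.3K36M cells. Tek did not rise: it averaged 121 in tumors, against 156 in H3.3K36M cells, with overlapping ranges. In H3.3K36M cells, Hba-a2, Hbb-b1 and Slc4a1 of the red cell list and Epcam, Cldn3 and Cldn4 of the epithelial list were at 0. The 10 mesenchymal markers summed to 367757 to 428874 in tumors, against 945211 to 1007020 in H3.3K36M cells. Of these, Thy1 went the other way, averaging 3161 in tumors, against 1168 in H3.3K36M cells. The ranges of Pdgfra and Col3a1 overlapped between tumors and H3.3K36M cells. The 5 pericyte markers summed to 9478 to 14182 in tumors, against 21085 to 22905 in H3.3K36M cells, but they did not move together. Cspg4 and Notch3 averaged 10370 and 1231 in tumors, against 17407 and 4553 in H3.3K36M cells. Rgs5, Kcnj8 and Abcc9 were higher in tumors, at means of 127, 272 and 192, against 15.7, 10.2 and 8.76 in H3.3K36M cells. The 6 red cell markers summed to 7671 to 19477 in tumors, against 836 to 885 in H3.3K36M cells. Epithelial markers summed to 233 to 26316 between tumors and were high in tumors 1, 2, 3 and 5, against 760.4 to 819 in H3.3K36M cells. Krt5 and Krt14 averaged 4569 and 6273 in tumors, against 0.87 and 24.4 in H3.3K36M cells. Epcam, Cldn3 and Cldn4 averaged 110.2, 23.2 and 38.1 in tumors. Cdh1 went the other way, at 87.0 to 348 in tumors, against 733 to 795 in H3.3K36M cells. Skeletal muscle markers were at 7375 in tumor 5 and 21312 in tumor 6, at 717 to 1433 in the other tumors, and at 567 to 569 in H3.3K36M cells. Adipocyte markers summed to 151 to 972 in tumors, against 374 to 423 in H3.3K36M cells, where nearly all of it was Pparg. Pparg averaged 185 in tumors, against 398 in H3.3K36M cells. Adipoq ranged from 7.08 to 430 in tumors, against a mean of 1.05 in H3.3K36M cells. Cidec, Plin1 and Lep averaged 99.7, 26.7 and 15.1 in tumors and were at 0 in H3.3K36M cells. These values accompany every tumor result that follows, and their part in those results was not tested.

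Tumor 6 stood apart from the other tumors. Its counts differed from theirs with a median chi-square per gene of 15.2 to 26.0, against 2.90 to 6.48 among tumors 1 to 5. Tests of the members in tumors, and counts over them, are therefore given with and without it.

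In tumors against cultured H3.3K36M cells, Twist1, Twist2, Msx1 and Osr2 rose, Prrx1, Msx2, Meis1 and Meis2 fell, and Prrx2 and Osr1 did not pass the test. That is 8 of 10 genes, where 75.2% of all 14842 genes were called (41% higher and 34.2% lower); without tumor 6 the count was again 8. Changes of 2-fold or more were 2 higher and 4 lower, against 26.5% and 20.7% of all genes, and 2 and 4 again without tumor 6. The median log2 change was -0.03 over the 10 genes and 0.14 over all genes tested, and quantile normalisation moved the median of all genes to -0.12. Directions of the 8 called genes were the same under quantile and upper-quartile scaling.

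**Figure D3:**
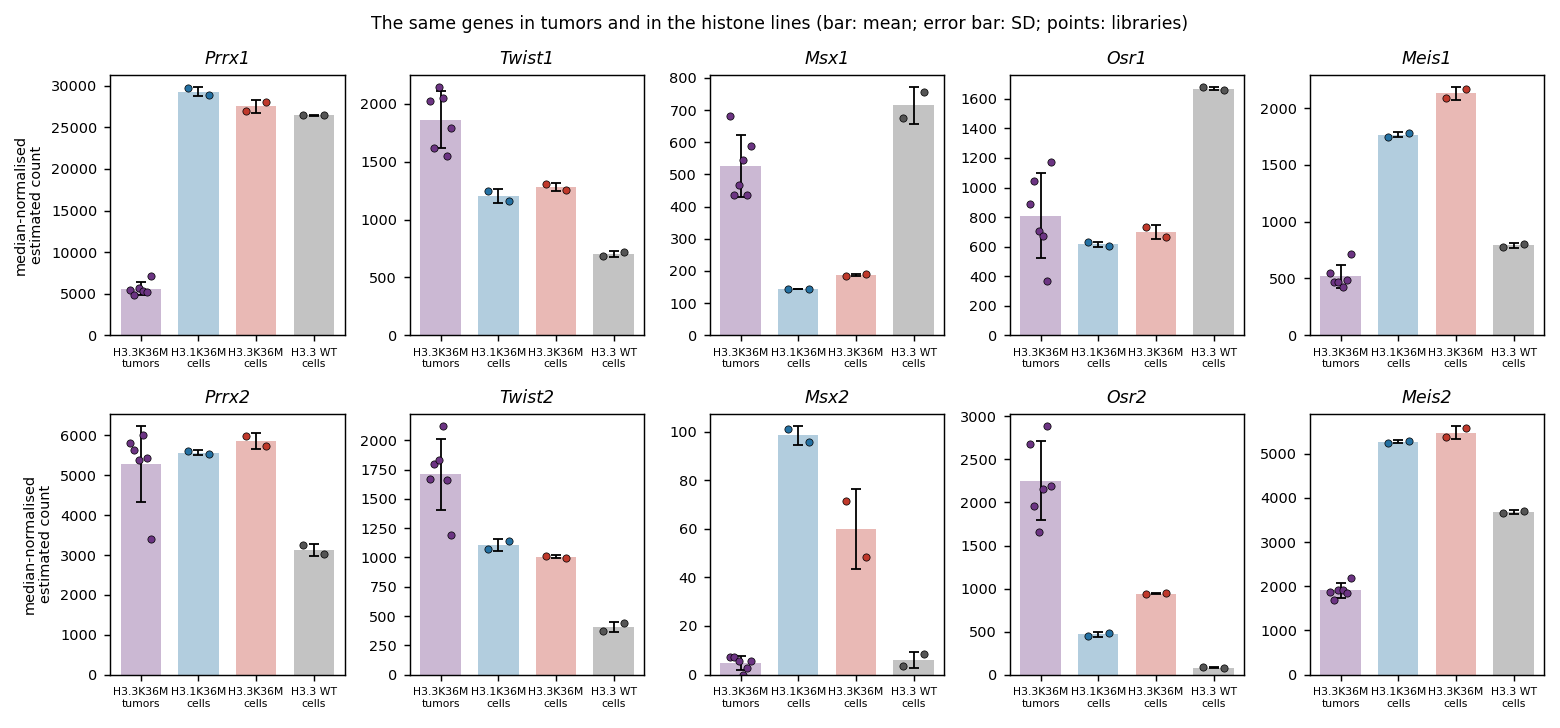
Normalised read counts of the 10 genes in H3.3K36M tumors, H3.1K36M cells, H3.3K36M cells and H3.3 WT cells, all from the table that holds the tumors; each point is a library, bars are means and error bars are SD. Tumors lie below all cultured lines for Prrx1, Meis1 and Meis2 and above them for Osr2, Twist1 and Twist2.

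Prrx1 ranged from 4886 to 7183 in the 6 tumors (median 5370.1), against 26964 and 28100 in H3.3K36M cells. No tumor came near the cultured level. The tumor mean was 20.4% of that of H3.3K36M cells (log2 -2.31 ± 0.14 SE, adjusted p = 5.73e-07 in limma; -2.38 without tumor 6). Prrx2 ranged from 3392 to 6021 in tumors (median 5532), against 5998 and 5725 in H3.3K36M cells. The groups overlapped, with tumor 6 far below the rest, and the difference did not pass the test (log2 -0.18, 95% interval -0.62 to 0.27; -0.05 without tumor 6). The tumor mean of Prrx2 was 90.1% of the cultured mean.

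Twist1 ranged from 1548 to 2147 in tumors (median 1907), against 1308 and 1257 in H3.3K36M cells. Every tumor was higher, and Twist1 rose 1.45-fold (log2 0.53 ± 0.14 SE, adjusted p = 0.00677 in limma; 0.54 without tumor 6). The call was lost when H3.3K36M library 2 was left out (log2 0.50). Twist2 ranged from 1195 to 2121 in tumors (median 1735), against 1015 and 999.6 in H3.3K36M cells. It rose 1.70-fold (log2 0.74 ± 0.18 SE, adjusted p = 0.00459 in limma; 0.84 without tumor 6), and tumor 6 was the lowest.

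Msx1 ranged from 437 to 680.4 in tumors (median 506), against 185 and 189.9 in H3.3K36M cells. All tumors were above both cultured libraries, a rise of 2.80-fold (log2 1.46 ± 0.18 SE, adjusted p = 7.99e-05 in limma; 1.43 without tumor 6). Msx2 ranged from 0 to 7.39 in tumors (median 5.59), against 71.6 and 48.5 in H3.3K36M cells. It was 0 in tumor 4, where 3 reads would be a value of 3.04. The tumor mean was 8.00% of that of H3.3K36M cells, and the fitted change was log2 -3.65 (adjusted p = 0.00232 in limma; -3.75 without tumor 6) or -2.25 with 10 added to each value. H3.3 WT cells had 674 and 755 for Msx1 and 3.71 and 8.46 for Msx2, and the ranges of tumors and H3.3 WT cells overlapped for both.

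Osr1 ranged from 368 in tumor 5 to 1172 in tumor 6 (median 797), against 731 and 665 in H3.3K36M cells. The groups overlapped widely and the difference did not pass the test (log2 0.12, 95% interval -0.72 to 0.96); it was -0.006 without tumor 6. Osr1 varied between tumors more than 84.8% of all genes tested (88.4% without tumor 6), with an SD of 0.60 on the log2 scale, against a median SD of 0.24. Osr2 ranged from 1652 to 2886 in tumors (median 2178), against 936 and 948 in H3.3K36M cells. It rose 2.39-fold with no overlap (log2 1.23 ± 0.19 SE, adjusted p = 0.000315 in limma; 1.24 without tumor 6).

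Meis1 ranged from 426 to 711 in tumors (median 479), against 2090 and 2169 in H3.3K36M cells. It fell to 24.3% (log2 -2.06 ± 0.18 SE, adjusted p = 7.42e-06 in limma; -2.16 without tumor 6, which was the highest tumor). Meis2 ranged from 1685 to 2196 in tumors (median 1894), against 5373 and 5582 in H3.3K36M cells. It fell to 34.8% (log2 -1.53 ± 0.10 SE, adjusted p = 1.28e-06 in limma; -1.57 without tumor 6). Meis2 was among the steadier genes between tumors: 15.6% of all genes had a smaller SD (12.7% without tumor 6).

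**Figure D4:**
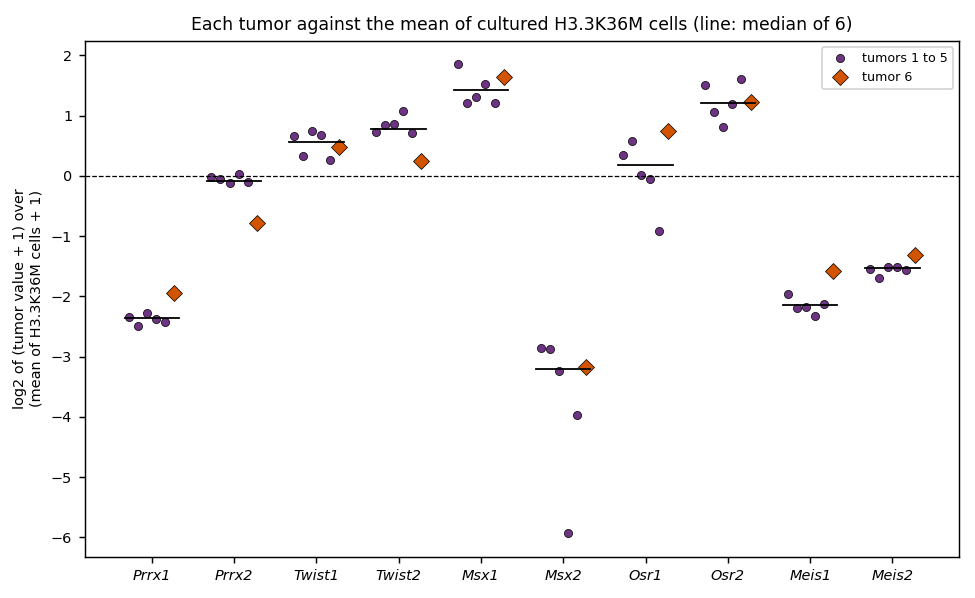
Value of each tumor against the mean of cultured H3.3K36M cells, as log2 of value + 1, with the median of 6 tumors as a line. Tumor 6 (diamond) is the highest tumor for Prrx1, Osr1, Meis1 and Meis2 and the lowest for Prrx2 and Twist2, and the lowest Msx2 point is tumor 4, with a value of 0.

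Tumors were also set against H3.3 WT cells, where 79.1% of all 14707 genes were called (43.8% higher and 35.3% lower). Of the 9 members tested, 4 rose and 5 fell, and 9 were called without tumor 6 too. By 2-fold or more, 3 rose, where 30.1% of all genes did, and 2 fell, where 22% did; these counts were 3 and 2 without tumor 6. Msx2 was not tested, because none of its libraries reached 10. Osr2 rose 27.8-fold, to a tumor mean of 2254 ± 457 (SD, n = 6), against 81.1 ± 2.41 in H3.3 WT cells (log2 4.75 ± 0.19 SE; 4.76 without tumor 6). Twist2, Twist1 and Prrx2 rose by log2 2.06, 1.39 and 0.73 (2.16, 1.40 and 0.85 without tumor 6). Prrx1 fell by 2.25 on the log2 scale, Osr1 by 1.14, Meis2 by 0.95, Meis1 by 0.63 and Msx1 by 0.46 (-2.32, -1.26, -0.996, -0.73 and -0.50 without tumor 6). The Msx1 call was lost in several alternatives, among them leaving out either H3.3 WT library, and Osr1 lost its call without either of these libraries. Leaving out H3.3 WT library 2 also ended the calls of Meis1 and Prrx2, which left 5 members called. Both tumor contrasts share the tumors, and in both, Osr2, Twist1 and Twist2 were higher and Prrx1, Meis1 and Meis2 lower in tumors than in cultured cells.

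Over the groups of the table with the tumors, tumors were highest for Osr2, Twist1 and Twist2, H3.3K36M cells for Prrx2, Meis1 and Meis2, H3.1K36M cells for Prrx1 and Msx2, and H3.3 WT cells for Msx1 and Osr1. Overlapping neighbours were H3.1K36M cells and tumors for Prrx2, H3.3 WT cells and tumors for Msx1 and Msx2, and tumors and H3.3K36M cells for Osr1.

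Related genes of the same pathways were taken from lists of limb homeobox and T-box factors, repressors of the Snai and Zeb families, and limb bud signals. Further lists held TALE partners and relatives of the Meis factors, and helix-loop-helix partners and relatives of the Twist factors. In H3.3K36M against H3.3 WT cells, 3 limb bud signals of 7 tested rose and 2 fell. Of all genes tested there, 37.5% rose and 33.3% fell. Grem1, a secreted BMP antagonist, was at 4069 ± 51.0 in H3.3K36M cells, against 375 ± 34.3 in H3.3 WT cells (SD, n = 2 each; log2 3.44, adjusted p = 1.90e-18 in limma). Cyp26b1, which breaks down retinoic acid, was at 105 ± 8.26 in H3.3K36M cells, against 2336 ± 34.98 in H3.3 WT cells (log2 -4.46). Fgf18 rose and Fgf10 fell among the other ligands, by log2 1.27 and -0.71.

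Of 19 limb homeobox and T-box factors tested, 4 rose and 9 fell in H3.3K36M cells, where 37.5% of all genes rose and 33.3% fell. Sall1, a zinc finger factor of limb and kidney, was at 56.2 ± 4.17 in H3.3K36M cells, against 586 ± 25.9 in H3.3 WT cells, and Lhx9, a LIM homeodomain factor, was at 2.02 ± 2.23 in H3.3K36M cells, against 167 ± 22.3 in H3.3 WT cells. Dlx3 was at 29.2 ± 0.34 in H3.3K36M cells, against 1.53 ± 0.66 in H3.3 WT cells. Of 8 helix-loop-helix factors, 5 rose and 3 fell. Scx, the tendon factor scleraxis, was at 1002 ± 12.6 in H3.3K36M cells, against 136 ± 2.82 in H3.3 WT cells. Of 4 repressors, Zeb1 rose (log2 0.39) and 3 fell, among them Snai2 by 1.75 and Zeb2 by 1.53 on the log2 scale. Of 14 TALE factors, 8 rose and 3 fell. Mkx, a homeodomain factor of tendon, rose by 0.62 on the log2 scale.

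With knockdown, Grem1 was at 2463 ± 57.9 in HMT siRNA cells, against 541 ± 42.7 in control siRNA cells (SD, n = 3 each; log2 2.19), and Cyp26b1 at 541 ± 20.9, against 2208 ± 109.8 (log2 -2.03). The lists gave 3 limb bud signals higher and 1 lower of 7, and 5 homeobox and T-box factors higher and 5 lower of 19. They gave 2 TALE factors higher and 7 lower of 14, and no helix-loop-helix factor higher and 5 lower of 8. Of all genes, 31.9% were higher and 31.7% lower. Snai2 and Snai1 fell by 0.39 and 0.32 on the log2 scale, 2 of the 3 repressors called of 4. Meis3, a relative of the Meis factors, fell by 0.61. In H3.1K36M cells Grem1 was at 5422 ± 41.2, against 506 ± 48.5 in H3.3 WT cells, and Cyp26b1 at 112 ± 1.52, against 3153 ± 33.6 in H3.3 WT cells.

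In tumors against H3.3K36M cells, 5 of 11 limb bud signals tested rose and 5 fell (5 and 6 without tumor 6), where 41% of all genes rose and 34.2% fell. Grem1 was at 71.9 ± 25.7 in tumors (SD, n = 6), against 5368 ± 71.9 in H3.3K36M cells (log2 -6.30; -6.26 without tumor 6). Fgf7 was at 42.3 ± 20.4 in tumors, against 4197 ± 169 in H3.3K36M cells (log2 -6.74; -6.92 without tumor 6). Bmp2 and Bmp7, ligands upstream of the Msx genes in limb, were at 70.7 ± 20.9 and 173 ± 92.2 in tumors; Bmp2 was 0 in both H3.3K36M libraries and Bmp7 averaged 2.00. Their fitted changes, which depend on the 1 added to such low values, were log2 6.11 and 5.75 (6.25 and 5.55 without tumor 6). Mkx fell by 3.31 and Snai2 by 3.33 on the log2 scale (both -3.36 without tumor 6), while Meis3 and Tgif1 rose by 1.44 and 1.45 (1.56 and 1.51 without tumor 6). Of 19 limb homeobox and T-box factors, 3 rose and 13 fell, with and without tumor 6, against those same shares of 41% and 34.2%. Of 14 TALE factors 4 rose and 8 fell (4 and 9 without tumor 6). Of 9 helix-loop-helix factors 1 rose and 4 fell (the same without tumor 6). Of 5 repressors 1 rose and 2 fell (1 and 3 without tumor 6).

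The genes whose values ran most like each member were ranked by the lower of 2 Pearson correlations, over the 10 libraries of the siRNA table and the 12 of the tumor table. The tables share 4 libraries, the libraries fall into groups, and 13147 genes were compared, so these are descriptions. They were Eprs, 2700007P21Rik and Arcn1 for Prrx1 (0.98 to 0.99), Phospho1, Msln and Txnl4a for Prrx2 (0.93 to 0.94), and Dhrs3, Cntf and Mterfd2 for Msx1 (0.95). For Msx2 they were Mafg, Amot and Slc1a6 (0.91 to 0.94), and for Meis1 Morc2a and Amot (0.97). Osr2 had Igfbp4 and 6030429G01Rik (0.97 to 0.98), and Twist1 had 6030429G01Rik, Fndc4 and Pvrl2 (0.97), so 1 gene stood on both lists. Meis2 had Atp1b1, Abcc5 and Wisp1 (0.97 to 0.99), and Twist2 had Sat1, Il33 and Impdh2 (0.97). Osr1 had no close match: Tctn2, Taf1b and Ppp1r3f reached 0.81 to 0.82.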

How the data were processed

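RNA sequencing (Trizol RNA, TruSeq libraries, per the labels' protocols) covered 18 libraries in 6 groups. Reads were processed with Bowtie 1.0.0, RSEM 1.2.12 and mm9, per the submitters' processing notes. In the 3 deposited tables, with 20325 genes and 26 columns in all, the signal values are estimated counts that the authors scaled by a median. Only 35.1 to 55.9% of values were whole multiples of 1 read (tolerance 0.01), so no count test was run.

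Values were tested with limma 3.58.1 (R 4.3.3) on log2(value + 1), eBayes with trend and robust options, two-sided, Benjamini-Hochberg over all genes tested, which needed 10 or more in as many libraries as the smallest group. The 10 siRNA-table libraries, the 6 cultured libraries of the tumor table, and the tumors with either H3.3 line (8 libraries each) were fitted separately. Adding 1 understates changes of low genes. The code was tested on simulated data. Python 3.11.15, numpy 2.4.6, pandas 2.3.3 and matplotlib 3.10.9 served for the rest.

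The members and lists were chosen with earlier results of these data known. All members were named, with the 2 largest called changes per direction and list available for naming, and up to 3 genes most like each member; a few items that these rules name are not reported here. Beside these, siRNA targets and cell type markers were named as checks. Alternatives tried were a pseudocount of 10, no filter, 2 other scalings, plain moderation, a replicate block, each library left out, the separate table of the H3.3 libraries, and all 12 libraries in the tumor fits.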

Additional observations from a re-analysis of the deposited data

Results flagged for a closer look

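In groups of 6, a library was singled out where its gap to the nearest other library, divided by the range of the group, passed Dixon's 95% critical value. Chance does this in about 1 in 20 groups. Of the 10 members, 2 were singled out, both for tumor 6: Prrx1 at 7183, the highest of the 6 tumors, and Prrx2 at 3392, the lowest. Of 24 genes named from the lists in the tumor contrasts, 3 were singled out. Id1, an inhibitor of helix-loop-helix factors, was lowest in tumor 6 at 755, Zeb2 was highest in tumor 6 at 1683, and Lhx9 was highest in tumor 3 at 2.72, which is a value of a few reads.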

How the results depend on the processing

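Of 985 values of members under the alternatives, 934 kept their direction and call, 27 kept direction but lost the call, 16 gained it and 8 turned sign; of 1764 values of listed genes, 1736 kept both, 26 lost the call and 2 turned sign. Prrx1 turned sign under quantile normalisation in H3.3K36M against H3.3 WT cells (-0.033), H3.1K36M against H3.3 WT cells (-0.039) and H3.1K36M against H3.3K36M cells (-0.0036). In tumors, Osr1 against H3.3K36M cells was -0.0058 without tumor 6 and at most 0.33 over the tumors left out, and Dlx3 and Snai3 against H3.3 WT cells were -0.96 and -0.076 under quantile normalisation. Prrx2 in H3.3 WT against control siRNA cells was 0.0024 without H3.3 WT library 2. The Twist2 difference of responses was -0.076, -0.0023 and -0.027 without H3.3 WT library 1, HMT siRNA library 3 and control siRNA library 2, and at most 0.13 over the libraries left out. Members called in H3.1K36M against H3.3K36M cells were 3 with plain moderation, against 5, and those in tumors against H3.3 WT cells were 5 to 9 over the libraries left out; the cause was not tested.

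Scaling shifted the split of calls. Quantile normalisation gave 4906 higher and 5929 lower in tumors against H3.3K36M cells (6086 and 5077 as deposited), and 5159 and 5922 against H3.3 WT cells (6439 and 5192). It moved the median of all genes to -0.12 and -0.11 there, against 0.14 and 0.19. Upper-quartile scaling gave 4051 and 5047 in H3.1K36M against H3.3K36M cells (4741 and 4400).

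Same-numbered libraries showed little shared deviation (correlations -0.127 to 0.06). Weak correlations cannot show whether the numbers pair samples, so a replicate block was tried as an alternative. With the replicate block, 9557 genes were called in H3.3K36M against H3.3 WT cells, against 9336, and Prrx1 was among them. The block also called Osr1 in tumors against H3.3K36M cells (0.46) and ended the call of Msx1 against H3.3 WT cells (-0.39). Values that stand for a few reads, as for Msx2, limit precision.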
